A study of Drosophila melanogaster with 31 samples.

Results

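HMS-Beagle, Burdock and Transpac are long terminal repeat (LTR) retrotransposons of the gypsy superfamily in *Drosophila melanogaster*, elements that copy themselves through an RNA intermediate. They are the entries HMSBEAGLE (6795 bases), BURDOCK (6135 bases) and TRANSPAC (4920 bases), chosen by name, 3 of the 129 transposable element entries in each of 5 deposited tables. The cells were ovarian somatic cells (OSC), a cultured line of follicle cell origin grown at 26 degrees C. RNA sequencing covered cells transfected with small interfering RNA against Nxf2 (2 samples), Panx (2), Piwi (1) or, as the control, EGFP (2). Crosslinking and immunoprecipitation (CLIP) with an anti-myc antibody used a stable OSC line that expresses myc-tagged Nxf2. In 1 experiment the cells were crosslinked by ultraviolet light (UV IP, 2 samples, with 1 size-matched input, SMInput) or not crosslinked (no UV IP, 2 samples, with 1 SMInput). In the other, crosslinked cells of that line were depleted of Piwi (2 IP and 2 SMInput samples) or given the EGFP control (2 IP and 2 SMInput samples). Per the labels, both arms of this experiment also received RNAi against the endogenous Nxf2, although the header of the EGFP-KD IP column does not name Nxf2. Piwi CLIP in OSC without knockdown had 2 IP samples and 1 SMInput, and small RNA bound to Piwi was sequenced from 1 sample.

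The piRNA pathway silences transposons with small RNAs of the PIWI class. In follicle cells Piwi is the PIWI protein at work: loaded with piRNAs it enters the nucleus and directs silencing of matching nascent transcripts, with repressive H3K9 methylation, through partners that include Panx and Nxf2. HMS-Beagle and Burdock are best known as targets of the pathway in the germline, whereas gypsy and ZAM are classic targets in follicle cells. The tables hold transposon entries only, so no germ cell or follicle cell marker gene was available to check the cell type, and Nxf2, Panx and Piwi themselves were not analysed here.

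Each table gave 1 read count per condition, with nothing stated on whether replicates were pooled, so no comparison below has a replicate check and no p-value was formed. A ratio is the reads per library total in the first condition over those in the second. Intervals are exact 95% intervals for counting error, which compare these libraries only, and reads are not independent molecules. An entry was tested where its mean over the table was at least 1 RPKM or RPM, and a call needed a 2-fold difference (ratios from 2 up are higher, from 0.5 down lower) and an interval without 1. The smallest library, the no UV IP, had 426679 reads and the largest, EGFP-KD RNA, had 9852335, and transposon entries took between 0.102% (no UV SMInput) and 37.7% (Piwi small RNA) of the reads.

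In Piwi-bound small RNA the 3 elements were far apart. HMSBEAGLE had 21620 reads, or 6782 RPM (reads scaled to library size, per 1e6 library reads), with an interval of 6692 to 6873. It ranked 22 of 129 entries, below BLOOD (7404 RPM) and above FW (5055 RPM), and supplied 1.80% of all transposon small RNA reads (Wilson interval 1.78 to 1.82%). TRANSPAC had 157 reads and 49.2 RPM (41.8 to 57.6), rank 74. BURDOCK had 45 reads and 14.1 RPM (10.3 to 18.9), rank 92. Scaled to element length, HMSBEAGLE had 998 RPM per kb, TRANSPAC 10.01 and BURDOCK 2.30, so that the HMSBEAGLE level was 99.7 times that of TRANSPAC and 434 times that of BURDOCK. The median entry had 76.9 RPM, so HMSBEAGLE lay above it and the other 2 below it.

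The order of the RNA levels was a different one. In control (EGFP-KD) cells TRANSPAC had 53.2 RPKM (RPM per kb of element), rank 9 of 129 on this per-length scale. HMSBEAGLE had 7.65 RPKM, rank 32, and BURDOCK 0.811 RPKM, rank 64. The level of TRANSPAC was 6.96 times that of HMSBEAGLE and 65.7 times that of BURDOCK. Set against its RNA, HMSBEAGLE had 131 small RNA RPM for each RNA RPM in EGFP-KD cells, rank 22 of the 77 entries with at least 10 reads in both libraries. BURDOCK had 2.84, rank 60, and TRANSPAC 0.188, rank 70, against a median of 17.4. These ratios set 2 library types side by side, and the tables do not state how a read that matches several entries was counted.

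**Figure D1:**
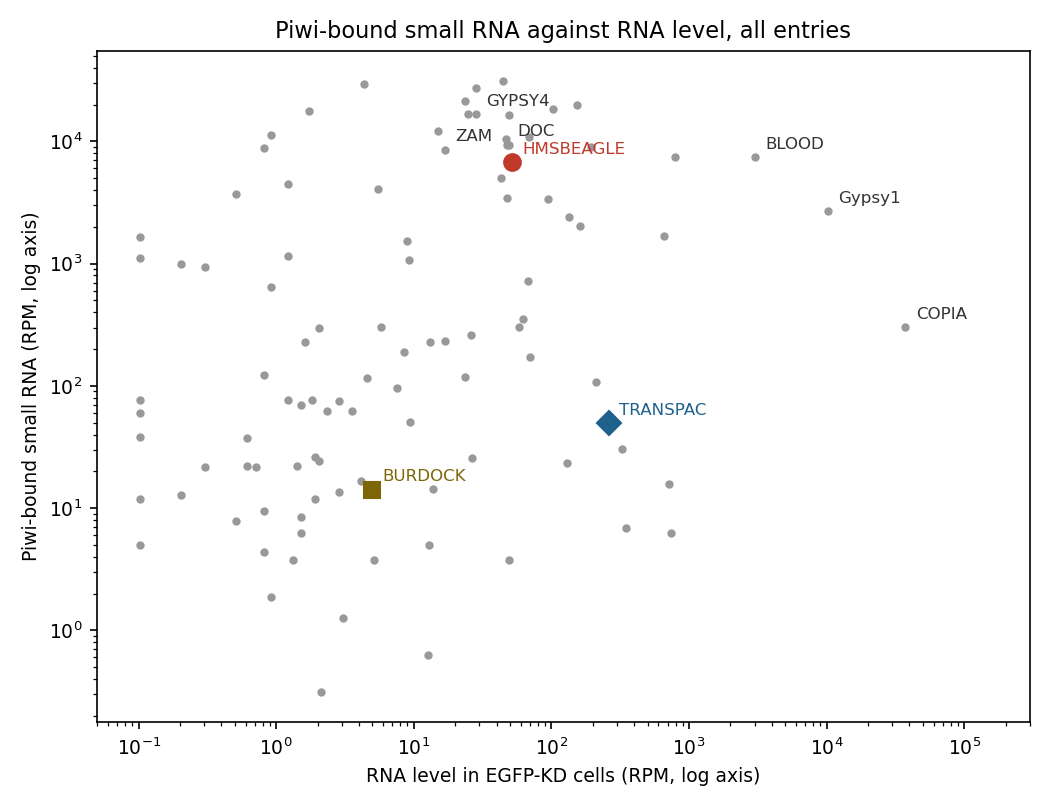
Piwi-bound small RNA (RPM, log axis) against RNA in EGFP-KD cells (RPM, log axis), 1 point per entry, for the 103 entries with reads in both libraries. The coloured points are the 3 elements: HMSBEAGLE stands at 6782 RPM of small RNA, while TRANSPAC (49.2 RPM) and BURDOCK (14.1 RPM) lie low, TRANSPAC at a higher RNA level than HMSBEAGLE.

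Depletion of Nxf2, Panx or Piwi asks whether the RNA of an element is held down by the pathway, and the RNA ratios of HMSBEAGLE and TRANSPAC stayed within 2-fold, while BURDOCK was too low to be tested. HMSBEAGLE had 554 reads (8.96 RPKM) in Nxf2-KD cells, 538 (8.67 RPKM) after Panx-KD and 420 (6.89 RPKM) after Piwi-KD, against 512 (7.65 RPKM) in EGFP-KD cells. Its ratios to EGFP-KD were 1.17 (1.04 to 1.32) for Nxf2-KD, 1.13 (1.003 to 1.28) for Panx-KD and 0.901 (0.790 to 1.03) for Piwi-KD, all short of the 2-fold threshold. The highest of its 4 RNA levels was 1.30 times the lowest.

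TRANSPAC had 2381 reads (53.2 RPKM) in Nxf2-KD cells, 2697 (60.0 RPKM) in Panx-KD cells and 2823 (64.0 RPKM) in Piwi-KD cells, against 2581 (53.2 RPKM) in EGFP-KD cells. Its ratios were 0.999 (0.945 to 1.06), 1.13 (1.07 to 1.19) and 1.2 (1.14 to 1.27) for Nxf2-KD, Panx-KD and Piwi-KD over EGFP-KD. Its 4 RNA levels lay close together, the highest 1.2 times the lowest, and all its intervals stayed within 2-fold. BURDOCK had 35 reads in Nxf2-KD cells (0.627 RPKM), 39 in Panx-KD cells (0.696 RPKM) and 24 in Piwi-KD cells (0.436 RPKM), against 49 in EGFP-KD cells (0.811 RPKM). Its mean of 0.643 RPKM was under the minimum, so it was not tested. The Piwi-KD ratio of 0.538 (0.316 to 0.894), with an interval below 1 and a log2 ratio of -1.48 when scaled to the median entry, was the farthest from 1 of its ratios to EGFP-KD, which were 0.774 (0.487 to 1.22) for Nxf2-KD and 0.859 (0.549 to 1.34) for Panx-KD. All 3 comparisons share the EGFP-KD library.

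Of the 2 elements tested, 0 were called in any of these comparisons. Over all 65 tested entries 33.8% were called higher in Nxf2-KD cells and 0% lower, the same shares held in Panx-KD cells, and 43.1% were called higher and 3.08% lower in Piwi-KD cells. The median ratio of the tested entries was 1.39 in Nxf2-KD, 1.51 in Panx-KD and 1.5 in Piwi-KD cells, above both elements. Scaled to that median instead of to the library total, entries called higher and lower numbered 13 and 4 for Nxf2-KD, 14 and 3 for Panx-KD, and 23 and 7 for Piwi-KD, against 22 and 0, 22 and 0, and 28 and 2. On that scale the log2 ratios of HMSBEAGLE turned to -0.25 in Nxf2-KD and -0.41 in Panx-KD cells. Those of TRANSPAC turned to -0.42 in Panx-KD and -0.32 in Piwi-KD cells. In the direct comparisons of Piwi-KD with Nxf2-KD and with Panx-KD cells, HMSBEAGLE had ratios of 0.769 (0.676 to 0.874) and 0.795 (0.698 to 0.905), and TRANSPAC 1.2 (1.14 to 1.27) and 1.07 (1.01 to 1.12). Neither was called, against 21.5% of entries called higher and 0% lower in each. Between HMSBEAGLE and TRANSPAC the Piwi-KD ratios differed by a factor of 0.750 (0.651 to 0.864), a value in which the library totals cancel. Between BURDOCK and TRANSPAC the factor was 0.448 (0.262 to 0.747), called lower, on the 24 and 49 reads of BURDOCK. The minimum mean, which BURDOCK did not reach in RNA, was not applied to factors between elements.

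The knockdown ratios can be set beside those of related entries. Of 18 entries listed as gypsy-superfamily elements of follicle cells, 15 were tested. Higher calls numbered 10 after Nxf2-KD, 11 after Panx-KD and 13 after Piwi-KD, with median ratios of 4.63, 6.33 and 28.2. Of 26 other gypsy-superfamily entries, listed as of the germline or with little somatic expression, 13 were tested. Their medians were 1.02, 1.05 and 0.990, with 1, 1 and 2 called higher and, in Piwi-KD cells, 1 called lower. Of 13 entries listed as germline-dominant, 9 were tested, with medians of 1.64, 1.55 and 1.07 and 3, 3 and 4 called higher and, in Piwi-KD cells, 1 called lower. After Nxf2-KD and Panx-KD, HMSBEAGLE and TRANSPAC had ratios closer to the medians of the other gypsy-superfamily entries than of the germline-dominant entries. In Piwi-KD cells HMSBEAGLE (0.901) was closer to the former (0.990) and TRANSPAC (1.2) to the latter (1.07). These lists overlap: MDG3 gave the highest Nxf2-KD ratio of both, 3.16. All lists were chosen with earlier results of these data known, so this likeness is not independent evidence.

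Most entries with more small RNA than HMSBEAGLE had higher RNA after a knockdown. Of the 21 entries with more Piwi-bound small RNA than HMSBEAGLE, 19 were tested in RNA. Calls of higher RNA were made for 13 after Nxf2-KD, 14 after Panx-KD and 17 after Piwi-KD, where the median ratio was 19.8. The 2 that were not called in Piwi-KD cells were ZAM, an infectious retrovirus-like element of the ovary (ratio 1.505, 1.23 to 1.85), and GYPSY4 (0.698, 0.574 to 0.846). Of the 44 tested entries with less small RNA than HMSBEAGLE, members not counted, 11 were called higher in Piwi-KD cells and 2 lower, with a median of 1.09. Of the 17 tested entries with less small RNA than TRANSPAC, 3 were called higher and 1 lower, with a median of 1.03.

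**Figure D2:**
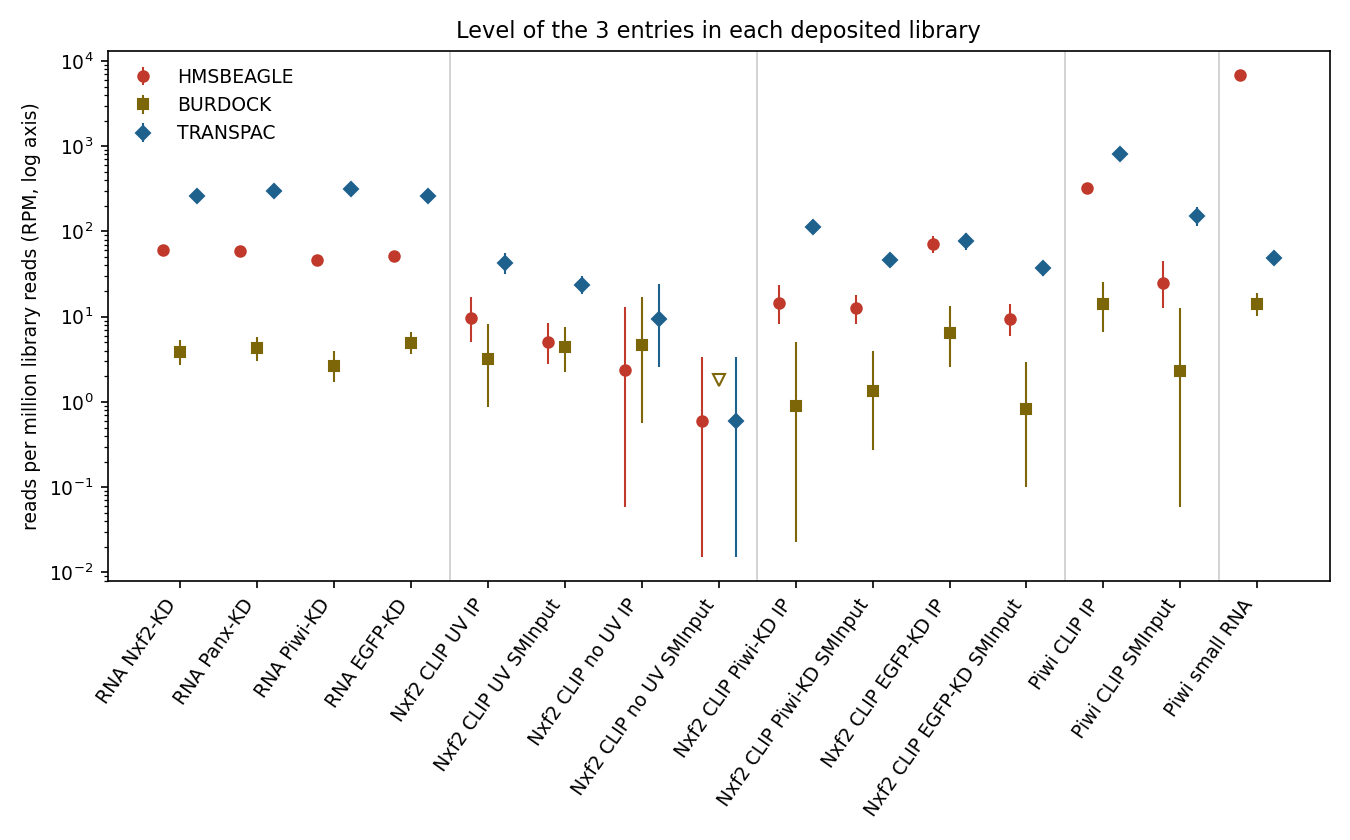
Level of each element (RPM, log axis) in all 15 deposited libraries, with the exact 95% counting interval as a vertical line. The open triangle marks BURDOCK at 0 reads in the no UV SMInput, drawn at the floor of 3 counts. HMSBEAGLE stood at 14.4 RPM in the Piwi-KD IP and at 71.1 RPM in the EGFP-KD IP, while its RNA levels lay between 46.8 and 60.9 RPM.

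CLIP of myc-Nxf2 in EGFP-KD cells asked which of these RNAs the protein contacts. HMSBEAGLE had 77 reads (71.1 RPM) in the EGFP-KD IP, against 23 reads (9.43 RPM) in its SMInput, a ratio of 7.54 (4.68 to 12.6). TRANSPAC had 83 reads (76.7 RPM) in the IP, against 90 reads (36.9 RPM) in SMInput, a ratio of 2.08 (1.52 to 2.83). BURDOCK had 7 reads (6.47 RPM), against 2 reads (0.820 RPM), a ratio of 7.88 with an interval of 1.501 to 77.8. All 3 were called higher, as were 50.6% of the 77 tested entries, with 3.9% called lower, and the median entry had a ratio of 2.82. Relative to that median 23 entries were called higher and 13 lower, against 39 and 3 by library total. TRANSPAC (log2 ratio -0.44) and BURDOCK (1.49) then lost their calls, whereas HMSBEAGLE kept its call. HMSBEAGLE was recovered over input 3.63 times as well as TRANSPAC (2.03 to 6.62), again with the library totals cancelled. Of the follicle cell list 13 of 15 tested entries were called higher (median 10.1), 9 of 16 other gypsy-superfamily entries (2.66) and 7 of 12 germline-dominant entries (2.48).

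In Piwi-KD cells the recovery of HMSBEAGLE by Nxf2 fell, and that of TRANSPAC was not called lower. HMSBEAGLE had 16 reads (14.4 RPM) in the Piwi-KD IP, against 28 reads (12.5 RPM) in the Piwi-KD SMInput, a ratio of 1.15 (0.582 to 2.2). TRANSPAC had 126 reads (114 RPM), against 104 reads (46.5 RPM), a ratio of 2.44 (1.87 to 3.20). BURDOCK had 1 read (0.901 RPM), against 3 reads (1.34 RPM), a ratio of 0.672 (0.0128 to 8.37). Of the 3, 1 was called higher over input, TRANSPAC, against 33.8% of 77 tested entries called higher and 3.9% lower. That call was not kept when ratios were scaled to the median entry (log2 ratio 0.36), where 3 entries were called higher and 12 lower, against 26 and 3.

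HMSBEAGLE was lower in the Piwi-KD IP, and its input was not called different. The Piwi-KD IP over the EGFP-KD IP had a ratio of 0.203 (0.110 to 0.350) for HMSBEAGLE, called lower, as were 17.9% of 78 tested entries, with 8.97% called higher. The ratio was 1.48 (1.11 to 1.98) for TRANSPAC and 0.139 (0.00309 to 1.08) for BURDOCK, neither of them called. In the SMInputs the Piwi-KD over EGFP-KD ratio was 1.33 (0.737 to 2.41) for HMSBEAGLE, 1.26 (0.940 to 1.69) for TRANSPAC and 1.63 (0.187 to 19.6) for BURDOCK, where 0 of the 3 were called and 23.1% of 78 entries were called higher. Combining them, IP over SMInput in Piwi-KD cells relative to EGFP-KD cells was 0.153 (0.0656 to 0.353) for HMSBEAGLE and 1.18 (0.777 to 1.78) for TRANSPAC, intervals that do not overlap. BURDOCK had 0.0853 (0.00143 to 2.13), an interval that spans 1. Set against TRANSPAC in the Piwi-KD IP over the EGFP-KD IP, BURDOCK was lower by a factor of 0.0941 (0.00207 to 0.761), a call that rests on 1 and 7 reads of BURDOCK. HMSBEAGLE was the 1 of the 3 called lower, against 30.7% of 75 tested entries called lower and 2.67% higher, whose median was 0.525. Scaled to that median, HMSBEAGLE stayed called lower and TRANSPAC was called higher (log2 ratio 1.16), with 9 entries called higher and 17 lower, against 2 and 23.

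**Figure D3:**
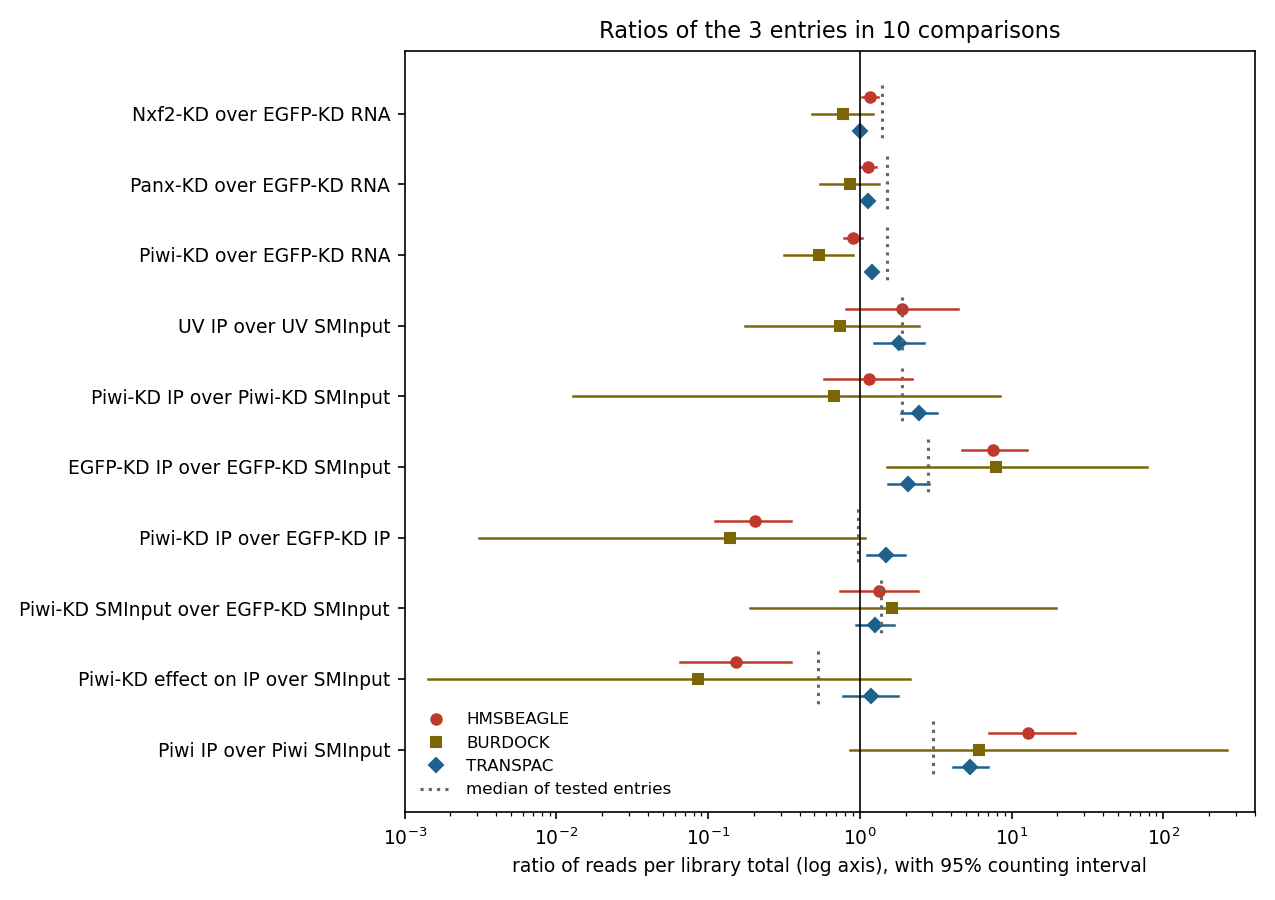
Ratios of the 3 elements in 10 comparisons (log axis) with 95% counting intervals as lines, and the median of the tested entries as a dotted mark. HMSBEAGLE lay at 7.54 in the EGFP-KD IP over SMInput and at 0.153 in the Piwi-KD effect, where TRANSPAC lay at 1.18. The lines of BURDOCK are wide in CLIP, where it had 1 to 7 reads per library of the knockdown experiment.

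HMSBEAGLE was lower in the Nxf2 IP after Piwi-KD while its RNA was not called higher. Among all entries, 22 were both called higher in the EGFP-KD IP over SMInput and called lower in the Piwi-KD effect, and 21 of them were tested in RNA. Of these, 18 were called higher in Piwi-KD RNA and 0 lower, against 43.1% of all tested entries called higher. The 3 that were not called were HMSBEAGLE, ZAM and GYPSY4. This set depends on the effect call. DM1731 and GYPSY6A, named after their values were seen, were also called higher in the EGFP-KD IP. Their effects of 0.115 and 0.128 were not called, and their Piwi-KD RNA ratios were 0.937 and 0.330. IVK and Copia1, likewise called higher in that IP, had uncalled effects of 0.317 and 0.409 but were called higher in Piwi-KD RNA. The effect divides by the Piwi-KD SMInput, which can rise with the RNA, so the RNA and effect calls are not independent. In the follicle cell list the Piwi-KD over EGFP-KD SMInput ratio had a median of 6.54, with 11 of 15 tested entries called higher. For the Piwi-KD IP over the EGFP-KD IP that list had a median of 0.763, with 4 called higher and 3 lower. ZAM had 4 reads in the Piwi-KD IP and 33 in the EGFP-KD IP, and its Piwi-KD effect was 0.0835 (0.0168 to 0.363). GYPSY4 had 11 and 61 reads in these IPs, and its effect was 0.161 (0.0513 to 0.511). Both entries also had more Piwi-bound small RNA than HMSBEAGLE, at 8554 RPM for ZAM and 16765 RPM for GYPSY4. The CLIP cells of both arms were also depleted of endogenous Nxf2 and expressed myc-Nxf2, whereas the RNA sequencing cells were not labelled so, and what this difference adds was not tested.

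**Figure D4:**
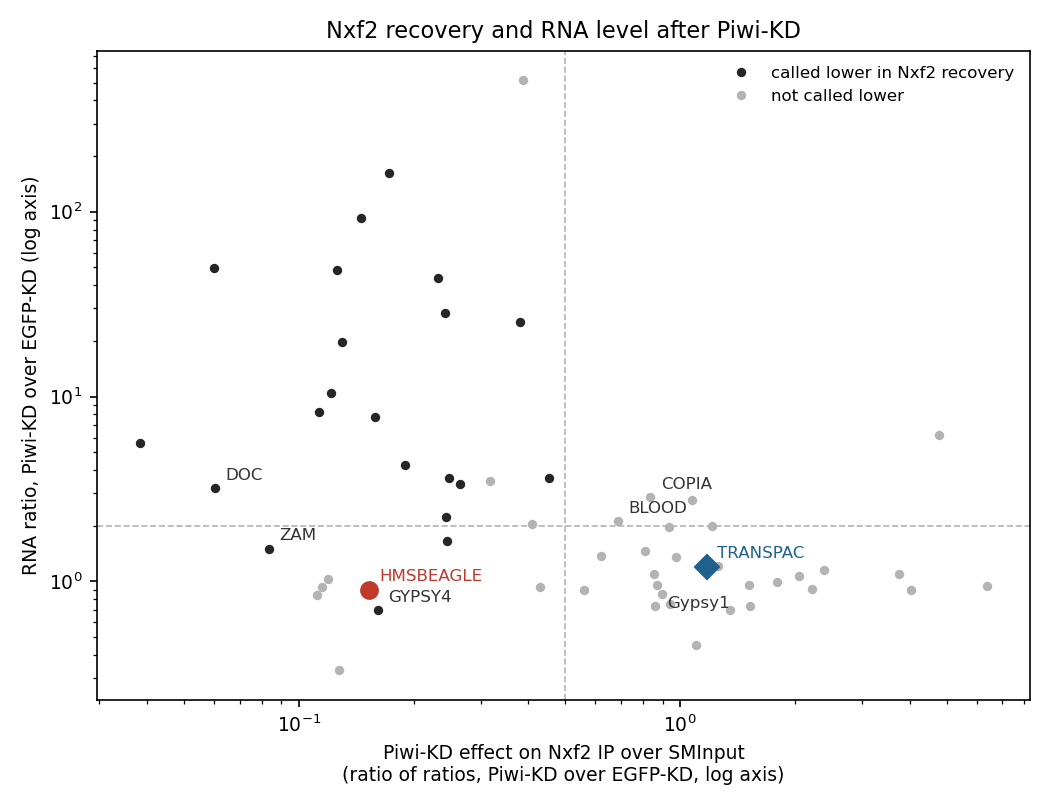
RNA ratio of Piwi-KD over EGFP-KD (log axis) against the Piwi-KD effect on Nxf2 IP over SMInput (log axis) for 58 entries tested in both. Dark points were called lower in Nxf2 recovery (22 entries with HMSBEAGLE), the vertical dashed line marks 0.5 and the horizontal one 2. Of the 22, 4 were not called higher in RNA: HMSBEAGLE, ZAM, GYPSY4 and DMCR1A. DMCR1A (effect 0.244, RNA ratio 1.66) was not called higher in the EGFP-KD IP over SMInput, which was not required here. The effect divides by the Piwi-KD SMInput, which can rise with the RNA, so the axes are not independent. HMSBEAGLE, ZAM and GYPSY4 lie at the lower left with RNA ratios of 0.901, 1.505 and 0.698, and TRANSPAC lies at the right, at 1.18 on the horizontal axis. BURDOCK was not tested in RNA and is not drawn.

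The UV experiment, in cells without siRNA in their labels, held fewer reads of the 3 elements. HMSBEAGLE had 12 reads (9.69 RPM) in the UV IP, against 14 (5.10 RPM) in the UV SMInput, a ratio of 1.90 (0.803 to 4.43). TRANSPAC had 53 reads (42.8 RPM), against 65 (23.7 RPM), a ratio of 1.81 (1.23 to 2.64), and BURDOCK had 4 reads (3.23 RPM), against 12 (4.37 RPM), a ratio of 0.739 (0.174 to 2.44). Of the 3, 0 were called, while 35.5% of 62 tested entries were called higher and 3.23% lower, with a median of 1.89. HMSBEAGLE and TRANSPAC differed by a factor of 1.05 (0.406 to 2.68) here. This interval overlaps that of the factor of 3.63 (2.03 to 6.62) found in EGFP-KD cells. The IP over SMInput intervals of HMSBEAGLE itself, 0.803 to 4.43 here and 4.68 to 12.6 in EGFP-KD cells, do not overlap. Scaled to the median entry of each experiment they were 0.424 to 2.34 and 1.66 to 4.47, which overlap. Whether the 2 experiments differ was not tested. The median scaling turned TRANSPAC to a log2 ratio of -0.066 and gave 14 higher and 7 lower calls, against 22 and 2.

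Without crosslinking, reads of these elements nearly vanished from the input. The no UV IP held 1 read of HMSBEAGLE, 4 of TRANSPAC and 2 of BURDOCK. The no UV SMInput held 1 read of HMSBEAGLE, 1 of TRANSPAC and 0 of BURDOCK, for which the floor of 3 counts is 1.80 RPM and the exact upper limit 2.21 RPM. Over the no UV IP, the UV IP had ratios of 4.14 (0.612 to 177) for HMSBEAGLE, 4.57 (1.68 to 17.4) for TRANSPAC and 0.689 (0.0988 to 7.62) for BURDOCK, with 1 of the 3, TRANSPAC, called higher against 36.2% of 58 entries. Between the inputs the UV over no UV ratio was 8.5 (1.29 to 359) for HMSBEAGLE and 39.4 (6.83 to 1582) for TRANSPAC, and at least 2.43 for BURDOCK when its 0 reads are set to the floor of 3 counts per library. The exact lower limit for BURDOCK was 1.69. All 3 were called higher, as were 45.6% of 57 entries, with 1.75% called lower, and the median ratio was 3.03. Scaled to that median, 8 entries were called higher against 26, and HMSBEAGLE lost its call (log2 ratio 1.49). BURDOCK also lost its call. Its log2 ratio was then at least -0.32, with an exact lower limit of 0.556 for the ratio and no upper limit, which shows no direction. In the no UV cells TRANSPAC was called higher in IP over SMInput, at 15.6 (1.55 to 769), against 29.4% of 34 entries, and HMSBEAGLE had 3.91 (0.0498 to 307). The call of TRANSPAC rests on 4 reads against 1 and was lost when scaled to the median entry (log2 ratio 2.04), where 1 entry was called higher, against 10. With both inputs taken into account the UV effect was 0.116 (0.00232 to 1.23) for TRANSPAC and 0.487 (0.00579 to 41.4) for HMSBEAGLE. Neither was called, against 6.45% of 31 entries called higher and 12.9% lower, and no ratio could be formed for BURDOCK.

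Piwi CLIP, which recovers RNA in contact with Piwi, held all 3 elements. HMSBEAGLE had 233 reads (325 RPM) in the Piwi IP, against 11 reads (25.2 RPM) in its SMInput, a ratio of 12.9 (7.07 to 26.2). TRANSPAC had 579 reads (807 RPM), against 66 reads (151 RPM), a ratio of 5.34 (4.13 to 6.996). BURDOCK had 10 reads (13.9 RPM), against 1 read (2.29 RPM), a ratio of 6.09 with an interval of 0.866 to 264. HMSBEAGLE and TRANSPAC were called higher, 2 of 3, against 60.2% of 93 tested entries called higher and 3.23% lower, whose median ratio was 3.04. Scaled to that median TRANSPAC was no longer called (log2 ratio 0.81) and HMSBEAGLE was, with 24 entries called higher and 8 lower, against 56 and 3. HMSBEAGLE was recovered over input 2.41 times as well as TRANSPAC (1.24 to 5.16), although TRANSPAC had the higher level in the IP per length, 164 against 47.8 RPM per kb. All 21 entries with more small RNA than HMSBEAGLE were called higher in this IP, with a median ratio of 16.0, as were 6 of the 27 tested entries with less small RNA than TRANSPAC, with a median of 1.83. The counts are not split by strand or read length, so any piRNA reads in the Piwi IP could not be told apart from element RNA.

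Over the 15 libraries the patterns of the 3 elements were unlike one another. Likeness was measured as Pearson's r of log2(RPM + 1), centred on the median of each library, among 111 entries with a mean of at least 1 RPM, and it describes libraries that share cells and controls. HMSBEAGLE was most like ZAM (r = 0.92), DOC, a non-LTR element (0.86), and GYPSY4 (0.84). TRANSPAC was most like Gypsy1 (0.92), COPIA (0.91) and BLOOD (0.91), abundant RNAs in these cells. BURDOCK was most like POGON1 (0.75), MARINER2 (0.73) and DIVER (0.73), a set in which POGON1 and MARINER2 have few reads, as BURDOCK does. Between the elements r was -0.22 for HMSBEAGLE and TRANSPAC, -0.49 for HMSBEAGLE and BURDOCK and 0.24 for BURDOCK and TRANSPAC. The likeness of TRANSPAC to its neighbours did not extend to every comparison: in Piwi-KD RNA COPIA had a ratio of 2.84 and BLOOD 2.11, both called higher, while TRANSPAC had 1.2 and Gypsy1 0.957. Their Piwi-KD effects on Nxf2 IP over SMInput were 0.836 for COPIA, 0.687 for BLOOD and 0.871 for Gypsy1, beside 1.18 for TRANSPAC.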

How the data were processed

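The authors deposited read counts per transposable element entry, with RPKM for RNA sequencing and RPM for CLIP and small RNA, in 1 column per condition, per the file headers. The Nxf2-KD RPKM column has a header without a unit, and was taken as RPKM because count, length and 1 library total give its values. Per the submitters' processing notes, the build was dm3. The notes name TopHat2 2.0.14, DESeq2, Bowtie 1.0.1 and Bowtie2 2.2.9 for poly(A)+ RNA. They name cutadapt and Bowtie for CLIP and small RNA, and also STAR and SAMtools for CLIP. The counting rule and whether replicates were pooled are not given in the sources used here, and replicate 1 and 2 could not be separated. Planned edgeR fits therefore could not be made. Peak lists of H3K9me3 name no element and were not used.

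Each library total was computed by dividing counts by the normalised values. Ratios carry exact conditional binomial (Clopper-Pearson) intervals, ratios of ratios exact conditional odds ratio intervals (SciPy 1.17.1, Python 3.11.15), and levels exact Poisson intervals. The intervals of ratios and of ratios of ratios were tested on simulated independent Poisson counts, and those of levels were not. Against 0 reads a floor of 3 counts was used, and no ratio was formed if the opposing count did not exceed it. In all, 17 comparisons were computed over all entries, and 41 between pairs of the 3 elements, of which 6 were called. The minimum mean was not applied to the pairs. The intervals are not adjusted for these numbers.

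The members and lists were chosen with earlier results of these data known. List names were matched without case or punctuation: 26 of 30, 18 of 19 and 13 of 14. Named beside the members are, by rule, the 3 most alike entries of each and neighbours in rank. Alternatives were a pseudocount of 1, scaling to the median ratio, totals without transposon reads, and other filters.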

Additional observations from a re-analysis of the deposited data

How the results depend on the processing

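No paired analysis was possible because each condition has 1 column, and leaving out a replicate was impossible for the same reason. A pseudocount of 1 changed no direction or call in the 49 ratios of the 3 elements. It was added to the ratio only and the intervals were kept, so a call on few reads could not be lost through its interval. Over all tested entries it moved higher calls to 17 (22) in Nxf2-KD RNA, 17 (22) in Panx-KD RNA and 26 (28) in Piwi-KD RNA. Higher calls rose to 23 (21) in UV IP over no UV IP and 57 (56) in Piwi IP. Library totals without transposon reads turned 2 directions, TRANSPAC in Nxf2-KD RNA (log2 ratio 0.061) and HMSBEAGLE in Piwi-KD RNA (0.024), and the other 47 kept direction and call. Scaling to the median ratio left 31 of 49 unchanged in direction and call. It turned 11, and in each of them the ratio to be turned was between 1 and the median ratio. The 11 include BURDOCK in UV over no UV SMInput, where the ratio is a lower bound, so its turn shows no direction. In RNA, HMSBEAGLE turned to -0.25 in Nxf2-KD and -0.41 in Panx-KD over EGFP-KD. TRANSPAC turned to -0.42 in Panx-KD and -0.32 in Piwi-KD over EGFP-KD, and to -0.027 in Piwi-KD over Panx-KD. In CLIP, TRANSPAC turned to -0.066 in UV IP over SMInput, -0.44 in EGFP-KD IP over SMInput and -0.13 in Piwi-KD over EGFP-KD SMInput. HMSBEAGLE turned to -0.72 in Piwi-KD IP over SMInput and -0.054 in Piwi-KD over EGFP-KD SMInput. The bound of BURDOCK turned to -0.32 in UV over no UV SMInput. Of the turned ratios, TRANSPAC in EGFP-KD IP and BURDOCK in UV over no UV SMInput also lost their calls. Calls were lost without a turn for TRANSPAC in no UV IP (2.04), Piwi-KD IP (0.36) and Piwi IP (0.81), each over its SMInput, for HMSBEAGLE in UV over no UV SMInput (1.49) and for BURDOCK in EGFP-KD IP over SMInput (1.49). Calls were gained for TRANSPAC in the Piwi-KD effect (1.16) and for BURDOCK, untested in the table, in Piwi-KD RNA (-1.48). Over all tested entries this scaling moved the higher calls to 13 (22 by library total) in Nxf2-KD RNA, 14 (22) in Panx-KD RNA, 14 (22) in UV IP, 1 (10) in no UV IP, 8 (26) in UV over no UV SMInput, 23 (39) in EGFP-KD IP, 3 (26) in Piwi-KD IP, 9 (18) in Piwi-KD over EGFP-KD SMInput, 9 (2) in the Piwi-KD effect and 24 (56) in Piwi IP. Lower calls moved to 4 (0) in Nxf2-KD RNA, 3 (0) in Panx-KD RNA, 7 (2) in Piwi-KD RNA, 2 (0) in Piwi-KD over Nxf2-KD RNA, 7 (2) in UV IP, 2 (0) in no UV IP, 3 (0) in Piwi-KD over EGFP-KD SMInput, 13 (3) in EGFP-KD IP, 12 (3) in Piwi-KD IP and 8 (3) in Piwi IP. In the UV effect higher calls moved to 4 (2) and lower calls to 1 (4). A minimum mean of 10 left 12 higher calls in UV IP. The ranks in small RNA (22, 74 and 92) do not depend on the total. Depth limits BURDOCK most: it had 0 to 12 reads in each CLIP library.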
